A study of Mus musculus with 12 samples.

Results

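Hematopoietic cluster cells were compared with endothelial cells of the large arteries of mouse embryos at embryonic day 11.5, among cells that were negative for a Ly6a-GFP reporter. The comparison used 6 of the 12 RNA-seq libraries of the series, 3 of GFP- cluster cells (HC below) and 3 of GFP- endothelial cells (EC below), and the libraries were taken by their labels. The series asks about CD27 as a mark of embryonic blood stem cells. Its GFP+ libraries enter the estimate of spread that every test shares, and are otherwise used here only where named. Females of a C57BL/6 x 129S1/SVImJ F1 cross were mated to Tg(Ly6a-GFP) males (background B6129S), and all 122 embryos dissected carried the reporter, so every group compared carries the transgene. Ly6a encodes the stem cell antigen Sca-1, and GFP- cells are those in which the transgene was not detected. Dorsal aorta, vitelline and umbilical arteries were digested together with collagenase. HC were sorted as c-Kit+ cells that also carried CD31, CD144 (VE-cadherin) and ESAM, and EC as cells with the same endothelial proteins and no c-Kit, so that c-Kit was the only difference between the 2 gates. In all 413000 GFP- HC and 791000 GFP- EC were collected and pooled into 3 independent biological samples of each. The number of cells or embryos in a pool is not given in the sources used here, and the labels name no gate that removed leukocytes or separated the 3 vessels.

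Blood clusters arise on the inner wall of embryonic arteries from hemogenic endothelium, which turns off endothelial genes and turns on blood genes under the control of Runx1. Arterial endothelium is set up by VEGF and Notch signals, with Hey1, Dll4, ephrin-B2 and the connexins Gja4 and Gja5 among its known genes. Prox1 and Lyve1 are known from venous and lymphatic endothelium, Lyve1 and Mrc1 are also carried by tissue macrophages, and Ptprc encodes CD45, the common surface antigen of leukocytes.

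Levels are FPKM (fragments counted, scaled by transcript length and library size), and a difference is the mean of log2(FPKM + 1) in HC minus that in EC, with its standard error, a scale that understates changes of weakly expressed genes. The summed FPKM of the 6 libraries lay between 589717 and 691948. FPKM keeps no read number, so the depth is unknown. The log2 values of all genes (no independent replicates of one another) correlated at 0.954 to 0.982 within a group and at 0.939 to 0.969 between groups. Within EC, replicate 3 correlated least, at 0.969 and 0.954 with EC replicates 1 and 2, which correlated at 0.976 with each other. HC replicate 2 stood apart from the other HC libraries. It correlated with EC replicates 1 and 2 at 0.968 and 0.969, as high as with HC replicate 1 (0.969), and at 0.978 with HC replicate 3. Each result below that rests on it is given with and without it where its call changed. In sorted bulk RNA, fewer cells of a type and less RNA per cell cannot be told apart.

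Of 33531 genes, 12590 reached an FPKM of 1 in 3 or more of these libraries and were tested with limma. A gene under 1 FPKM in every EC library could pass this filter only through HC, which favours rises among such genes. At an adjusted p under 0.05, 320 genes (2.54%) were higher in HC and 262 (2.08%) were lower. The median difference over all tested genes was 0.01, and 2417 genes had an unadjusted p under 0.05. Groups that do not overlap were common: the 3 HC values lay above all 3 EC values for 1642 genes (13%) and below them for 1342 (10.7%). Without HC replicate 1 the calls fell to 52 and 48, without HC replicate 3 to 98 and 90 and without EC replicate 1 to 109 and 78, whereas without HC replicate 2 they were 333 and 289. With any 1 of the 6 libraries left out, 51 of the genes that rose and 45 of those that fell passed every time, and these are marked below as held. Scaling every library to the same FPKM sum moved the median of all genes to 0.14 and the calls to 565 higher and 130 lower, so that 81.3% of the calls were higher instead of 55.0%. No called gene changed sign under that scaling.

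**Figure D1:**
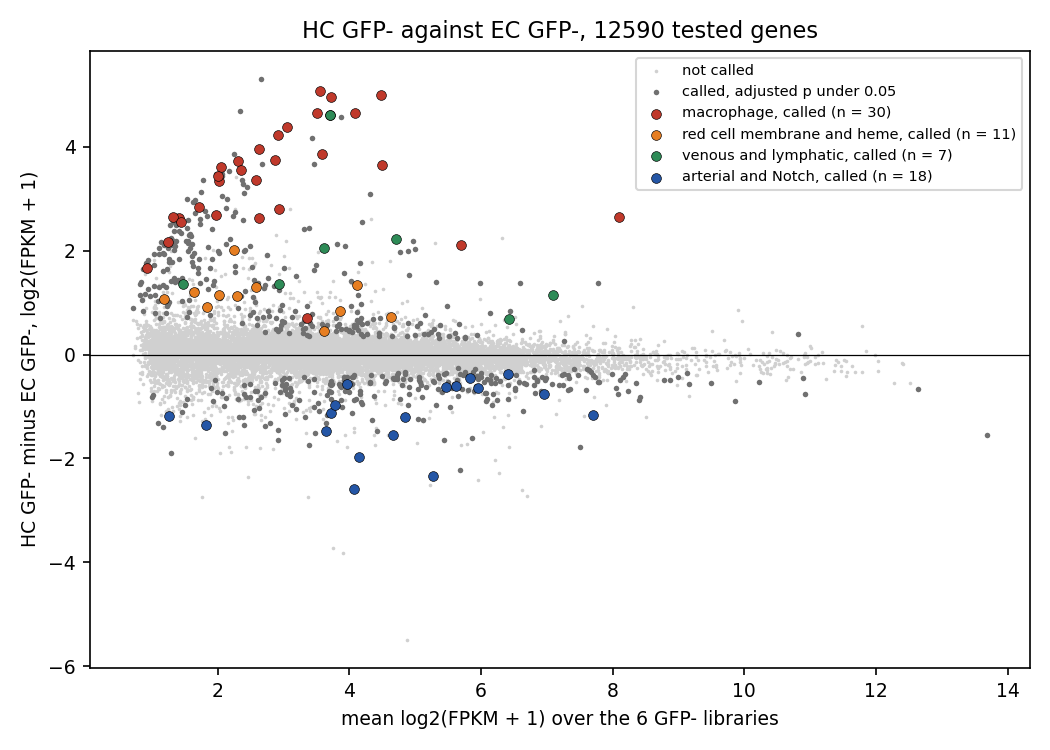
Difference between HC and EC (vertical axis, log2) against the mean log2(FPKM + 1) of the 6 GFP- libraries (horizontal axis), 1 point per tested gene. Coloured points are the called members of 4 gene lists: 30 macrophage genes and 11 red cell genes lie above 0, as do 7 venous and lymphatic genes, and 18 arterial genes lie below 0.

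The genes of the gate were checked first. Kit stood at 19.2, 25.8 and 19.1 FPKM in HC and at 12.6, 17.6 and 18.6 FPKM in EC. The groups did not overlap, but the lowest HC library lay just above the highest EC library and the difference did not pass (log2 0.38 ± 0.15, adjusted p = 0.19). Kit RNA was thus present in the cells sorted as negative for its protein, which itself is not measured here. Pecam1 (CD31) was at 200, 281 and 229 FPKM in HC and 330, 356 and 298 in EC and was called lower (log2 −0.48 ± 0.11, adjusted p = 0.0354), a call lost without EC replicate 1 or 2 or HC replicate 1 or 3 (−0.61 to −0.37 over the 6 libraries). Cdh5 (VE-cadherin) lay between 383 and 565 FPKM in the 6 libraries and did not pass (log2 −0.24, adjusted p = 0.343), and neither did Esam (log2 −0.53, adjusted p = 0.0585). Ly6a lay between 0.0538 and 1.47 FPKM in both groups. Cd27, the receptor of the series' title, was at 0.865, 0.475 and 0.974 FPKM in HC and 0.256, 0.226 and 0 in EC and stayed below the filter.

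The markers Ptprc, Hey1, Prox1 and Lyve1, of blood, artery and lymphatic endothelium, separated the groups. Other markers of these cell types were called in part, as given below, and Gfi1b, Itga2b, Hey2, Flt4 and Nr2f2 were not. Ptprc (CD45) stood at 6.93, 2.59 and 7.07 FPKM in HC and at 0.061, 0.216 and 0 in EC (log2 2.49 ± 0.29, adjusted p = 0.00166). Hey1, a Notch target of arteries, was at 11.6, 15.9 and 14 FPKM in HC and at 47.5, 43.8 and 36.2 in EC (log2 −1.55 ± 0.14, adjusted p = 0.000408). Prox1, the master gene of lymphatic identity, went the other way at 10.9, 11.6 and 11 against 3.21, 5.03 and 3.21 FPKM (log2 1.36 ± 0.15, adjusted p = 0.00124). Lyve1, a hyaluronan receptor, followed at 68.4, 41.2 and 61.6 against 10.9, 15.9 and 7.87 FPKM (log2 2.23 ± 0.28, adjusted p = 0.00255). For each of the 4 genes every HC library lay on the same side of every EC library, and all 4 calls held. Ptprc passed the filter through HC alone. The endothelial genes Cdh5, Kdr, Tek, Tie1 and Emcn were abundant in both groups and none of them was called, while 7 of the 40 tested pan-endothelial genes, Pecam1 among them, fell and are given below.

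**Figure D2:**
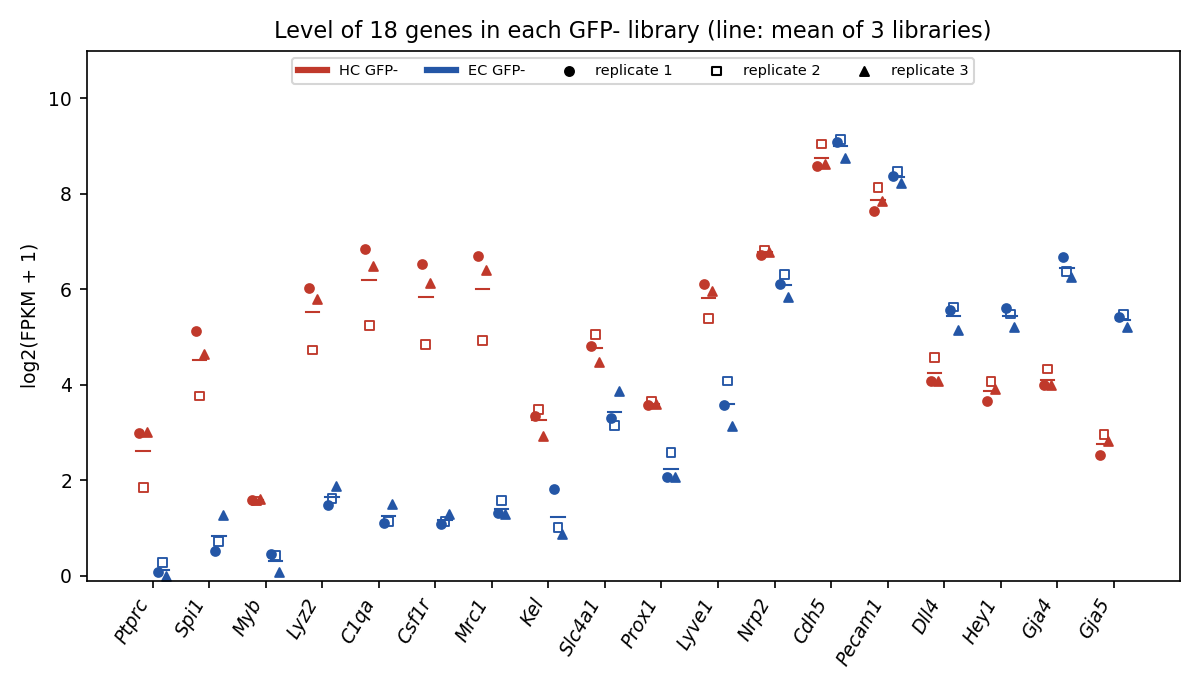
FPKM of 18 genes in each of the 6 GFP- libraries, on a log axis. HC are red, EC blue and replicate 2 is the open square: for the macrophage genes it is the lowest HC point, and it still lies above all EC points.

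Macrophage genes made up most of the largest rises. Of 35 listed genes 31 passed the filter, and 30 of these (96.8%, against 2.54% of all tested genes) rose and none fell. The list's median difference was 3.44, against 0.01 over all genes. Several members passed the filter through HC alone, since they were under 1 FPKM in every EC library. The subunits of complement C1q were among the 12 largest rises of the comparison. C1qa was at 115, 36.7 and 89.5 FPKM in HC and 1.15, 1.2 and 1.82 in EC (log2 4.95 ± 0.61, adjusted p = 0.00251). C1qb (198, 60 and 166 against 1.79, 2.86 and 4.77 FPKM) and C1qc (132, 40.8 and 109 against 1.97, 2.16 and 3.2 FPKM) had the same order of libraries. In each of these genes HC replicate 2 was the lowest of the HC and far above all EC.

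Receptors of macrophages rose alongside. Csf1r, the receptor for the growth factor CSF1 on which macrophages depend, was at 91.4, 27.6 and 69 FPKM in HC and 1.13, 1.21 and 1.46 in EC (log2 4.65, adjusted p = 0.00255). Mrc1, the mannose receptor, was at 103, 29.5 and 83.9 against 1.47, 2 and 1.46 FPKM (log2 4.62 ± 0.51, adjusted p = 0.00121). Fcgr3, an activating receptor for antibodies, was at 50.6, 16.2 and 38.8 against 0.798, 0.478 and 1.02 FPKM (log2 4.23 ± 0.55). Emr1, which encodes the F4/80 antigen, was at 37.9, 11.7 and 28.6 against 0.408, 0.806 and 0.563 FPKM (log2 3.95 ± 0.52), and the chemokine receptor gene Cx3cr1 at 25.4, 8.11 and 23.6 against 0.364, 0.275 and 0.485 FPKM (log2 3.72 ± 0.56). Every EC library was below the lowest HC library for all 5. The model gene Gm22027, outside that set by its name, had a difference of 4.68. Tyrobp, the signalling adaptor of several such receptors, had the largest rise under the naming rule, at 107, 32.3 and 86.4 against 2.33, 1.22 and 0.105 FPKM (log2 5.08 ± 0.66, adjusted p = 0.00307).

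Secreted and lysosomal products followed the same pattern. Lyz2, a lysozyme, was at 64.4, 25.6 and 54.7 FPKM in HC and 1.78, 2.06 and 2.7 in EC (log2 3.86 ± 0.40, adjusted p = 0.00084). F13a1, a coagulation factor subunit made by macrophages and megakaryocytes, was at 116, 32.2 and 93 against 1.55, 1.1 and 4.04 FPKM (log2 4.58 ± 0.63). The chemokine Ccl3 was at 66.7, 17.2 and 42.9 against 0.242, 0.911 and 1.58 FPKM (log2 4.37 ± 0.69). Ms4a7 was listed at 0 in all 3 EC and at 7.55, 2.14 and 8.02 FPKM in HC. Apoe, a lipid carrier that other tissues also make, was at 1056, 358 and 832 against 122, 132 and 78.7 FPKM (log2 2.64 ± 0.54, adjusted p = 0.0215). Fcrls and Ms4a6b were also among the 12 largest rises of genes with a full gene name, at 66.6, 21 and 63.3 against 0.595, 1.64 and 2.89 FPKM and at 26.3, 8.33 and 22.3 against 0.25, 0.158 and 0.319 FPKM.

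The summed FPKM of the 35 macrophage genes was 2621, 863 and 2090 in HC replicates 1, 2 and 3 and 181, 191 and 146 in EC. HC replicate 2 thus held the fewest macrophage transcripts of the HC and still far more than any EC library. Of the 30 called genes, 28 (93.3%) were in HC replicate 2 at under 0.5 of the mean of HC replicates 1 and 3, against 5.74% of all tested genes and 44.1% of all genes called higher. Without HC replicate 2 the list still had 30 calls and a median of 3.95. Without HC replicate 1, HC replicate 3 or EC replicate 1 the calls fell to 12, 17 and 18, with medians of 3.10, 3.28 and 3.41. The 12 that held with every library left out were C1qa, C1qb, C1qc, Csf1r, Emr1, Cx3cr1, Mrc1, Fcgr1, Fcgr3, Tyrobp, Lyz2 and Ccl3. Whether macrophages in the HC gate or macrophage genes of the cluster cells gave these transcripts was not tested.

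Sequence just before the start of these genes is shown because PU.1, the product of Spi1, is known to act at macrophage promoters through words with the core GAGGAA. In the 250 bases before the start, the word GAGGAA or its reverse complement TTCCTC occurred in 12 (57.1%) of the 21 called macrophage genes with a RefSeq promoter, in 4 (25%) of the 16 called arterial genes with one, in 4 (80%) of the 5 called venous and lymphatic genes with one, and in 23.1% of 27025 promoters. Such a match is a description of the letters in this window and not a bound site. The 4 promoters below come from RefSeq on GRCm38.p6, while the expression values use mm9, and each is written 5′ to 3′ on the strand of its gene with matches in capitals. They are Mrc1 with 3 matches (chr2:14229164-14229413, plus strand), C1qc with 1 match (chr4:136892915-136893164, minus strand), Lyz2 with no match (chr10:117282273-117282522, minus strand) and, from the genes lower in HC, Gja5 with 2 matches (chr3:97032152-97032401, plus strand).
Mrc1: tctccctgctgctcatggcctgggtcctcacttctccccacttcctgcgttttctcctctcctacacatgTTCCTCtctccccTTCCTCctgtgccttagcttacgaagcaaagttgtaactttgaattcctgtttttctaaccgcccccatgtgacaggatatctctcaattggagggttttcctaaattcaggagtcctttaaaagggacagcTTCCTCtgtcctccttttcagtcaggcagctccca
C1qc: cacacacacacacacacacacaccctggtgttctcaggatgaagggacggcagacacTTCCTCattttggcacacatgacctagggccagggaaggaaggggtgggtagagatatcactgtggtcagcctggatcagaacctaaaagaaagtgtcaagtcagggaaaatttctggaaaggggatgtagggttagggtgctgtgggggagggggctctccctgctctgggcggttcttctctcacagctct
Lyz2: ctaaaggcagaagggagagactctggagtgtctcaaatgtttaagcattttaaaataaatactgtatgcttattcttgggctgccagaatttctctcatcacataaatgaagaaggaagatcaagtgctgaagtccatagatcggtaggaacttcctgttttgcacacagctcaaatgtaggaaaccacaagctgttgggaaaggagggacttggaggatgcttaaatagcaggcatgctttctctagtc
Gja5: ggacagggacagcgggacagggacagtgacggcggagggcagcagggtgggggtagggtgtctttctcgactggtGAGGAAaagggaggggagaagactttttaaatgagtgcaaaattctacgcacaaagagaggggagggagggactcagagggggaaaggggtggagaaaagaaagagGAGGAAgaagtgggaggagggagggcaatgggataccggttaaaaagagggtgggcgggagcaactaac
The matches in Gja5, which fell, show that the word was not limited to genes that rose, and the sharp rise of Lyz2 came with no match in its window. In windows looked at but not printed, Fcgr3, which rose, had 1 match and Gja4, which fell, had 0. The word TGTGGT or ACCACA of RUNX factors was in 28.6% of the macrophage windows, 6.25% of the arterial ones and 14.2% of all. The word TGGGAA or TTCCCA of RBPJ, the DNA-binding partner of Notch, was in 23.8%, 12.5% and 21.5%, and the word AGATAA or TTATCT of GATA factors in 9.52%, 6.25% and 10.2%.

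Other genes of the blood cell cytoplasm and surface rose as well. Of 36 tested adaptors and actin regulators of blood cells 16 (44.4%, against 2.54% of all tested genes) rose and none fell (median 1.20). Of the 16, 7 held. Members such as Rac2 passed the filter through HC alone, which favours rises in this list. Rac2, the blood cell form of the Rac GTPases, was at 18.4, 7.46 and 15.4 FPKM in HC and 0.449, 0.16 and 0.175 in EC (log2 3.47 ± 0.37, adjusted p = 0.00106). Nckap1l, a subunit of the actin-organising WAVE complex, was at 16.6, 5.75 and 12.2 against 0.486, 0.406 and 1.13 FPKM (log2 2.82 ± 0.40), and Was, the actin regulator lost in Wiskott-Aldrich syndrome, at 9.6, 4.37 and 8.03 against 1.11, 0.446 and 1.85 FPKM (log2 1.96 ± 0.31). HC replicate 2 was the lowest HC library for each. Without HC replicate 1 the list had 7 calls and without HC replicate 2 it had 19.

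On the cell surface, 10 of 26 tested leukocyte genes (38.5%) rose and 2 (7.69%) fell (median 0.61), against 2.54% and 2.08% of all tested genes. Beside Ptprc these were Cd53 (9.87, 3.55 and 9.62 against 0.429, 0.129 and 0.139 FPKM, log2 2.72 ± 0.46), a tetraspanin of leukocytes, and Cd48 (2.45, 1.2 and 3.44 against 0.101, 0 and 0 FPKM, log2 1.65 ± 0.30), both of them lost without HC replicate 1 (2.50 and 1.42), and Cd48 also without HC replicate 3. The integrin gene Itgam and the adhesion gene Cd44 also rose, with calls that ended without any of 4 and 5 of the 6 libraries. Cd34, a mucin of endothelium and of blood progenitors, went down from 350, 347 and 292 FPKM in EC to 181, 266 and 195 in HC (log2 −0.64 ± 0.14, adjusted p = 0.0257, between −0.80 and −0.52 with a library left out and lost in 4 of 6 cases). The list's call count was 1 without HC replicate 1, 2 without HC replicate 3 and 3 without EC replicate 1, with Ptprc as the member that held. Ptprc, Cd53 and Cd48 passed the filter through HC alone.

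Among 24 tested cytokine and chemokine receptors 8 (33.3%) rose and 2 (8.33%) fell (median 0.62), against 2.54% and 2.08% of all tested genes. The list had 1 rise without HC replicate 1, 4 without HC replicate 3 and 4 without EC replicate 1. After Csf1r, the receptors for interleukin 6 (Il6ra) and for the granulocyte factor (Csf3r) were called. Il6ra was at 4.73, 1.96 and 4.06 against 0.0707, 0.107 and 0.0163 FPKM (log2 2.05 ± 0.34) and passed the filter through HC alone. Csf3r, unlike the macrophage genes, was even across the HC libraries at 4.99, 4.47 and 4.38 against 2.21, 1.25 and 0.746 FPKM (log2 1.27 ± 0.23, adjusted p = 0.0124). Both calls were lost without HC replicate 1 (1.86 and 1.22). The 2 that fell were the CXCL12 receptors Cxcr4 and Ackr3. Cxcr4 was at 6.86, 9.23 and 8.13 FPKM in HC and 34.4, 35.6 and 32.6 in EC (log2 −1.96 ± 0.19, adjusted p = 0.000584) and held, and Ackr3 was at 11.4, 10.9 and 10.4 against 17.4, 16.4 and 15.9 FPKM (log2 −0.56 ± 0.13, adjusted p = 0.0352) and was lost without any 1 library.

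Transcription factors of blood were mixed: 7 of 24 tested (29.2%) rose, 1 (4.17%) fell and the median was 0.17. Of all tested genes 2.54% rose and 2.08% fell. Spi1 (PU.1), which drives myeloid fate, was at 34.2, 12.6 and 23.9 FPKM in HC and 0.438, 0.647 and 1.44 in EC (log2 3.67 ± 0.37, adjusted p = 0.000779). Runx1, needed for blood to form from endothelium, was at 6.12, 2.73 and 5.57 against 0.629, 0.27 and 1.44 FPKM (log2 1.70, adjusted p = 0.00791). Both were lowest among HC in replicate 2. Myb, a factor of blood progenitors, was level over the HC libraries at 1.99, 1.96 and 2.05 FPKM and at 0.37, 0.337 and 0.0532 in EC (log2 1.27 ± 0.20, adjusted p = 0.0076). Ikzf1, known for its part in lymphoid and stem cells, was at 5.46, 3.43 and 6.83 against 0.448, 0.594 and 0.363 FPKM (log2 2.05 ± 0.19, adjusted p = 0.000507). These 4 calls held, and Myb and Ikzf1 passed the filter through HC alone.

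Gata2 and Tal1, which blood and endothelium share, were not called. Gata2 was at 17.9, 21.3 and 16.6 FPKM in HC and 17.3, 21.7 and 15.3 in EC (log2 0.05 ± 0.12, adjusted p = 0.88), and Tal1 at 18.3, 22.4 and 17.9 against 20.4, 20.5 and 18.2 FPKM (log2 −0.01 ± 0.10). Gfi1b, a factor of red cells and platelets, overlapped between the groups, at 1.13, 2.88 and 0.296 against 0.699, 0.39 and 2.44 FPKM. Lyl1, a relative of Tal1, rose modestly (40, 43.8 and 37.9 against 26.5, 29.5 and 22.9 FPKM, log2 0.61 ± 0.11, adjusted p = 0.0123, 0.62 and lost without HC replicate 1). Mecom, which encodes the stem cell factor Evi1, was the member that fell. It stood at 10.8, 13 and 12.5 FPKM in HC and 24, 28 and 21.5 in EC (log2 −0.96 ± 0.11, adjusted p = 0.00121), with no overlap, and held. The list counts 4 rises without HC replicate 1. In the list of fetal stem cell genes 1 of 27 (3.7%) rose and 2 (7.41%) fell, against 2.54% and 2.08% of all tested genes.

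Red cell genes rose to a lesser extent. Of 44 tested genes of the red cell membrane and heme synthesis 11 (25%, against 2.54% of all tested genes) rose and none fell. The list's median was 0.49. Kel, a blood group protease, was at 9.17, 10.2 and 6.63 FPKM in HC and 2.52, 1.02 and 0.842 in EC (log2 2.02 ± 0.31, adjusted p = 0.007). Dmtn, which binds spectrin and actin, was at 28.3, 36.9 and 28.5 against 20, 20.7 and 15.2 FPKM (log2 0.72 ± 0.12, adjusted p = 0.0107). These 2 held. Slc25a37, the iron importer of mitochondria, was at 18.6, 21.2 and 15.9 against 8.65, 12.1 and 9.13 FPKM (log2 0.84 ± 0.14, 0.83 and lost without HC replicate 1). Slc4a1, which swaps chloride for bicarbonate in red cells, was at 27.3, 32.1 and 21.3 against 8.89, 7.85 and 13.7 FPKM (log2 1.34 ± 0.32, adjusted p = 0.037), and was lost without any library except EC replicate 3. HC replicate 2 was not low for these genes: it was the highest HC library for Kel, Dmtn, Slc25a37 and Slc4a1. The list had 2 calls without HC replicate 1, 6 without HC replicate 2 and 6 without EC replicate 1.

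Globins are the most abundant red cell transcripts, and none of the 6 tested passed by limma, with 1 higher at an unadjusted p under 0.05. The groups overlapped for 5 of them, and Hba-a1 was at 408, 507 and 395 FPKM in HC and 221, 142 and 384 in EC (log2 0.92 ± 0.35, adjusted p = 0.179). Hbb-y was at 3744, 5485 and 3745 FPKM in HC and 2600, 2047 and 4669 in EC (log2 0.54 ± 0.34, adjusted p = 0.428), and Hba-x at 1223, 1659 and 1036 against 637, 478 and 1164 FPKM (log2 0.85 ± 0.41). Globins took 1.08 to 1.69% of the summed FPKM of HC and 0.680 to 1.16% of that of EC, so red cell RNA was present in both, in cells sorted for endothelial proteins. Reads shared by near-identical globin copies leave single globins uncertain. No platelet gene of the markers Pf4, Itga2b, Itgb3 and Gp9 was called, and Pf4 ranged from 84.7 to 201 FPKM in HC and from 56.2 to 195 in EC. In the platelet list 2 of 29 (6.9%) rose and 2 (6.9%) fell (median −0.49), against 2.54% and 2.08% of all tested genes.

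Few listed genes of other blood lineages passed the filter. Of 30 listed granulocyte and mast cell genes 6 passed it and 2 rose (33.3%, against 2.54% of all tested genes). Mpo, the peroxidase of granulocytes and their progenitors, was at 3.37, 6.78 and 4.16 FPKM in HC and 0.599, 1.08 and 1.03 in EC (log2 1.57 ± 0.25, adjusted p = 0.00807), with HC replicate 2 the highest, and it held. Of 30 lymphoid genes 8 passed the filter and 1 rose (12.5%). That gene was Ighm, the heavy chain of IgM, at 21.7, 5.76 and 17.1 against 0.112, 0.323 and 0.255 FPKM (log2 3.52 ± 0.60, 3.17 and lost without HC replicate 1), with the library order of the macrophage genes. Ighm passed the filter through HC alone, which favours a rise. The lymphoid genes Dntt, Cd3e, Igll1 and Ncr1 and the mast cell genes Mcpt8 and Tpsb2 were listed at 0 in all 6 libraries.

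**Figure D3:**
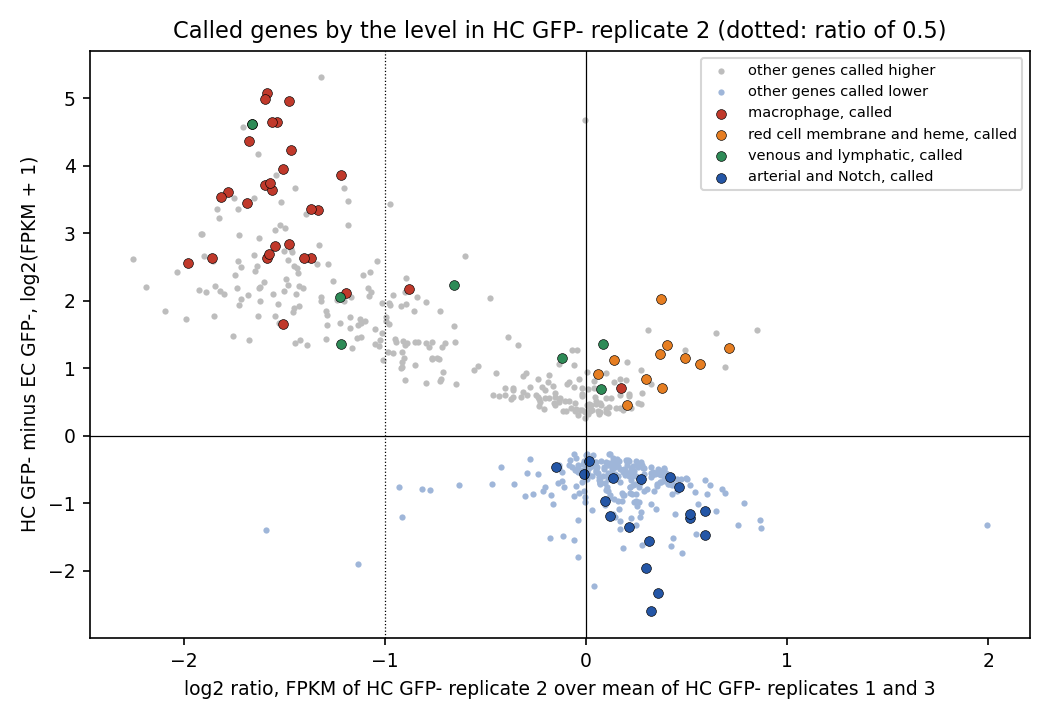
HC minus EC difference (vertical axis, log2) against the log2 ratio of HC replicate 2 to the mean of HC replicates 1 and 3 (horizontal axis), 1 point per called gene, with list members coloured and a dotted line at a ratio of 0.5. Of the 30 called macrophage genes 28 lie left of that line, with a median ratio of 0.341.

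Arterial genes led the falls. Of 34 tested genes of arterial identity and Notch signalling 18 (52.9%, against 2.08% of all tested genes) fell and none rose. The list's median was −0.61. The connexins of arterial endothelium led. Gja5 was at 4.75, 6.79 and 6.09 FPKM in HC and 41.6, 43.5 and 36 in EC, 6.87-fold lower in HC (log2 −2.60 ± 0.17, adjusted p = 3.04e-05). Gja4 was at 15, 19.2 and 14.9 against 101, 82 and 76.1 FPKM (log2 −2.33 ± 0.14, adjusted p = 2.67e-05). The third connexin of the list, Gja1, changed little by comparison (72, 74.3 and 74.9 against 101, 96.5 and 90.2 FPKM, log2 −0.37 ± 0.09, adjusted p = 0.0439), and its call was lost without any 1 library.

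Within the Notch pathway, ligands and targets included called and uncalled genes, and neither receptor given here was called. Of the ligands, Dll4 was at 15.8, 22.7 and 15.9 FPKM in HC and 46.4, 48.6 and 34.7 in EC (log2 −1.21, adjusted p = 0.00317), and Jag2 at 7.29, 10.5 and 6.67 against 20.2, 19.8 and 16 FPKM (log2 −1.12 ± 0.16, adjusted p = 0.00584). Jag1 was lower in every HC library (6.74, 8.04 and 7.98 against 9.28, 11.7 and 8.22 FPKM) without passing (log2 −0.31 ± 0.12, adjusted p = 0.178). The receptors did not pass: Notch1 had a difference of −0.22 ± 0.16 (adjusted p = 0.52) and overlapped, and Notch4, at 44.6, 55.3 and 30.3 against 73.6, 74 and 62.4 FPKM, had −0.71 ± 0.19 (adjusted p = 0.0576). Of the targets, Hey1 fell as given above, Nrarp, a feedback inhibitor, fell by 0.61 on the log2 scale (adjusted p = 0.0446, lost without any library but HC replicate 2), and Hes1 did not pass (log2 −0.22 ± 0.15, adjusted p = 0.472). Sox17, which acts upstream of arterial genes, overlapped between the groups at 40.5, 61 and 45.1 against 60.1, 63.3 and 36.6 FPKM (log2 −0.11 ± 0.21, adjusted p = 0.843).

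Other members of the arterial list fell as well. Sema3g, a semaphorin of arterial endothelium, was at 5.45, 8.53 and 5.87 FPKM in HC and 21.4, 22.5 and 15.9 in EC (log2 −1.47 ± 0.16, adjusted p = 0.00121). Igfbp3, a binding protein of insulin-like growth factors, was at 116, 176 and 130 against 331, 326 and 279 FPKM (log2 −1.16 ± 0.18), and the kinase gene Bmx at 0.504, 0.616 and 0.631 against 2.29, 3.44 and 2.24 FPKM (log2 −1.19 ± 0.16). Bmx passed the filter through EC alone. Efnb2, the arterial ephrin ligand, fell from 74.2, 91.6 and 65.4 FPKM in EC to 45.5, 55.1 and 45.8 in HC (log2 −0.64 ± 0.13, adjusted p = 0.0235). The calls of Gja4, Gja5, Hey1, Cxcr4, Dll4, Jag2, Bmx, Sema3g and Igfbp3 held, and that of Efnb2 was lost without EC replicate 1, HC replicate 1 or HC replicate 3 (−0.75 to −0.51 over the 6) and under each scaling of libraries. The list had between 9 calls (without HC replicate 1) and 19 (without HC replicate 2). It had 11 with the GFP- libraries fitted alone, and 13 lower and 1 higher with libraries scaled to the same sum. The summed FPKM of the list was 878, 1090 and 914 in HC and 1732, 1669 and 1456 in EC, so here HC replicate 2 lay highest among HC and still below every EC.

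Several of the other genes among the 12 largest falls are less tied to arteries. Sema7a, a membrane-bound semaphorin, was at 3.91, 5.91 and 4.58 FPKM in HC and 20.3, 17.3 and 16.8 in EC (log2 −1.73 ± 0.14, adjusted p = 0.000169). Prnd, a relative of the prion protein gene, was at 19, 28.8 and 23.9 against 80.9, 73.7 and 72 FPKM (log2 −1.64 ± 0.15), and Stmn2, a microtubule regulator of neurons, at 11.7, 11.3 and 12.6 against 39.8, 32.4 and 32.8 FPKM (log2 −1.48 ± 0.11, adjusted p = 7.58e-05). Ssu2 (log2 −1.52 ± 0.16), Lmo7 (log2 −1.51 ± 0.19) and Vwa1 (log2 −1.45 ± 0.19) completed the set with the mitochondrial gene mt-Atp8. No HC library overlapped an EC library for any of these, and the calls held. Stmn2 was the 1 gene of 11 tested neural genes that passed (9.09% lower, against 2.08% of all tested genes).

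Venous and lymphatic genes went the opposite way. Of 21 tested 7 (33.3%, against 2.54% of all tested genes) rose and none fell, with a median of 0.56. Beside Prox1, Lyve1 and Mrc1, these were Nrp2, Stab1, Maf and Dab2. Nrp2, a co-receptor for VEGF-C, was at 104, 112 and 110 FPKM in HC and 67.9, 78.9 and 56 in EC (log2 0.69 ± 0.11, adjusted p = 0.0076). Stab1, a scavenger receptor of sinusoidal endothelium and macrophages, was at 240, 194 and 181 against 103, 113 and 65.4 FPKM (log2 1.15 ± 0.24, adjusted p = 0.0237, 0.91 to 1.30 with a library left out and lost in 4 of 6 cases). Flt4, the receptor for VEGF-C, did not pass (69.6, 87.2 and 65 against 66.6, 67.1 and 49.7 FPKM, log2 0.27 ± 0.15, adjusted p = 0.345), and neither did Nr2f2, the venous fate factor (48.5, 51.6 and 46.4 against 30.9, 40.6 and 28.5 FPKM, log2 0.55 ± 0.14, adjusted p = 0.0517).

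The 7 calls fell into those with and those without the library order of the macrophage genes. In HC replicate 2 Mrc1, Maf and Dab2 were lowest, with Maf at 35.4, 13.7 and 28.5 FPKM (EC 4.86, 4.65 and 5.64, log2 2.06 ± 0.36, 1.79 to 2.44 and lost without HC replicate 1 or 3) and Dab2 at 5.02, 1.94 and 4.02 FPKM (EC 0.695, 0.825 and 0.688, log2 1.36 ± 0.29, 1.15 to 1.66 and lost in 4 of 6 cases). Prox1 and Nrp2 were level, and Prox1 was highest in HC replicate 2. Lyve1 was lowest there as well, at 68.4, 41.2 and 61.6 FPKM in HC replicates 1, 2 and 3, which is the library order of the macrophage genes. Stab1 was lowest in HC replicate 3. Dab2 passed the filter through HC alone. Prox1, Lyve1, Nrp2 and Mrc1 held. Without HC replicate 1 or 3 the list had these 4 calls, and without EC replicate 2 it had 11.

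**Figure D4:**
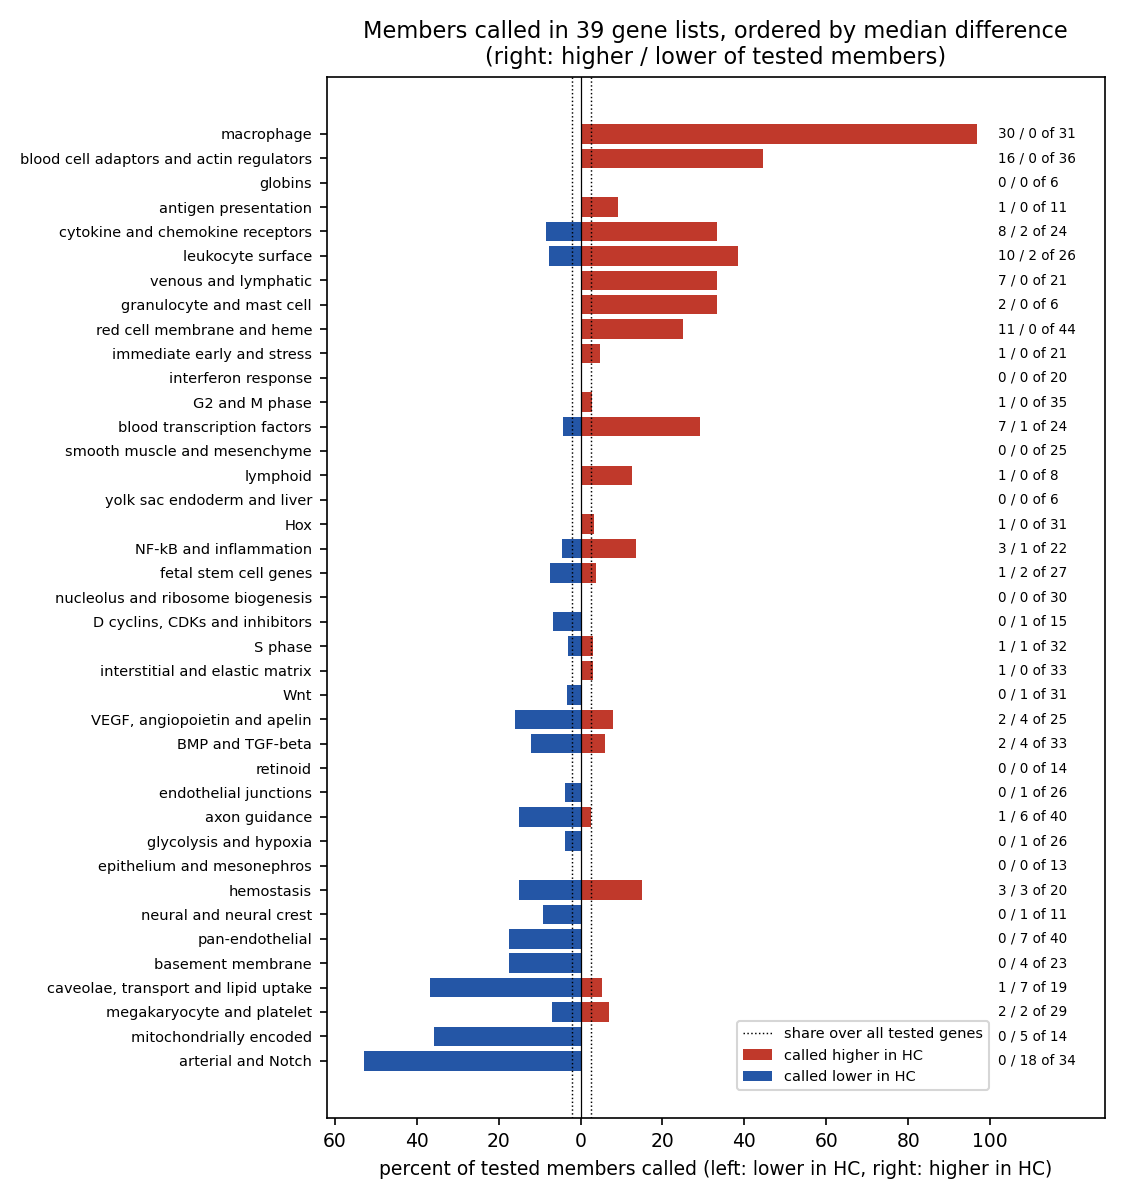
Share of each list's tested members called higher (right) or lower (left) in HC, in percent, for 39 gene lists, with dotted lines at the background of 2.54% and 2.08%. Macrophage genes reach 96.8% on the right and arterial genes 52.9% on the left.

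Of 40 tested pan-endothelial genes 7 (17.5%, against 2.08% of all genes) fell and none rose, with a median of −0.24. In all 35 lay below 0, and 17 were lower at an unadjusted p under 0.05. Icam2, an adhesion gene, was at 130, 180 and 148 FPKM in HC and 258, 219 and 255 in EC (log2 −0.68 ± 0.13, adjusted p = 0.0147), and Podxl, a sialomucin, at 57.2, 70.5 and 54.6 against 98.7, 94.2 and 76.1 FPKM (log2 −0.55 ± 0.11, adjusted p = 0.0213). Flt1, the decoy receptor for VEGF, was at 39.5, 55.9 and 50 against 78.4, 83.4 and 61.6 FPKM (log2 −0.61 ± 0.15, adjusted p = 0.0396), while Kdr, the main signalling receptor, overlapped at 178, 234 and 187 against 212, 232 and 165 FPKM (log2 −0.02 ± 0.14). HC replicate 2 was the highest HC library for Icam2, Podxl, Flt1 and Kdr. None of the 7 calls held. The count was 0 without EC replicate 1, HC replicate 1 or HC replicate 3, 2 without EC replicate 2 and 18 without HC replicate 2. It was 1 with the GFP- libraries fitted alone or with libraries scaled to the same sum, and 2 after quantile normalization.

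In the VEGF, angiopoietin and apelin list 2 of 25 (8%) rose and 4 (16%) fell, against 2.54% and 2.08% of all tested genes. The list had 1 rise and 1 fall without HC replicate 1 and 2 falls with the GFP- libraries alone or with equal sums. Esm1, which marks VEGF-stimulated endothelium, was at 4.74, 6.02 and 6.15 FPKM in HC and 14.1, 14.7 and 13.9 in EC (log2 −1.21 ± 0.18, adjusted p = 0.00584) and held. Vegfc, the growth factor of lymphatic vessels, was at 9.94, 12.1 and 12.2 against 25.8, 20.8 and 19.3 FPKM (log2 −0.88 ± 0.15, adjusted p = 0.00892, −0.77 to −0.97 and lost without HC replicate 1). Its co-receptor Nrp2 was thus higher where Vegfc was lower. Among genes of caveolae, transport and lipid uptake 7 of 19 (36.8%) fell and 1 (5.26%) rose (median −0.36). Cav1, the main protein of caveolae, was at 54.1, 80 and 71.5 FPKM in HC and 148, 146 and 140 in EC (log2 −1.09) and held. Gpihbp1, which carries lipoprotein lipase across endothelium, was at 7.97, 18.4 and 12.3 against 30.6, 30.3 and 30.6 FPKM (log2 −1.25 ± 0.23, adjusted p = 0.0144), and Lpl, the lipase itself, was the member that rose (10.9, 4.72 and 12.2 against 1.97, 2.49 and 3.35 FPKM, log2 1.44 ± 0.34, adjusted p = 0.0372). The call of Gpihbp1 was lost without EC replicate 1, HC replicate 1 or HC replicate 3 (−1.53 to −0.97) and that of Lpl without any library but HC replicate 2 (1.21 to 1.82). The caveolae list had 1 lower call without EC replicate 1 or HC replicate 1, 2 without HC replicate 3 and 1 with the GFP- libraries fitted alone.

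Signals around the vessel wall gave short lists of calls. In the BMP and TGF-beta list 2 of 33 (6.06%) rose and 4 (12.1%) fell, against 2.54% and 2.08% of all tested genes. The list had 1 rise and 1 fall without HC replicate 1, 1 rise and 2 falls without HC replicate 3 and 2 falls without EC replicate 1. The ligand Bmp4 was at 22.6, 18.6 and 23.6 FPKM in HC and 13.3, 13.6 and 12.9 in EC (log2 0.66 ± 0.10, adjusted p = 0.00695), whereas the BMP target Id1 was at 50.2, 61.1 and 54.2 against 96.3, 96.8 and 111 FPKM (log2 −0.87 ± 0.10, adjusted p = 0.00121). Both held. Of 23 basement membrane genes 4 (17.4%) fell and none rose (median −0.28), with Sparc at 576, 587 and 618 against 967, 707 and 967 FPKM (log2 −0.55 ± 0.11, adjusted p = 0.017). None of the 4 held, and the count was 0 without EC replicate 1, HC replicate 1 or HC replicate 3 and 1 with libraries scaled to the same sum or the GFP- libraries fitted alone. In the hemostasis list 3 of 20 (15%) rose and 3 (15%) fell. F13a1 has been given. S100a10, a cell surface receptor for plasminogen, was at 122, 129 and 124 FPKM in HC and 208, 173 and 230 in EC (log2 −0.69 ± 0.09, adjusted p = 0.00317) and held, and Plau, the urokinase that activates plasminogen, was higher at 87, 98.2 and 91.6 against 56.5, 59.5 and 43.6 FPKM (log2 0.79 ± 0.16, adjusted p = 0.0185, 0.66 to 0.88 and lost in 4 of 6 cases). The hemostasis list had 1 call in each direction without HC replicate 1.

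Kitl, the ligand of the receptor used in the gate, was picked after its values were seen. It was at 16.7, 22.8 and 21.7 FPKM in HC and 40.3, 47.6 and 35 in EC (log2 −0.97 ± 0.19, adjusted p = 0.017), with no overlap, and was lost without EC replicate 1, HC replicate 1 or HC replicate 3 (−1.08 to −0.84). The ligand thus stood lower in the c-Kit+ cells, while the receptor's RNA did not pass.

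Calls in the S phase list and in the G2 and M phase list were near the shares of all genes (2.54% higher and 2.08% lower). Of 35 tested genes of G2 and M phase 1 rose, the kinase gene Aurkb (50.4, 53.1 and 48.8 against 39.9, 38 and 40.5 FPKM, log2 0.35 ± 0.08, adjusted p = 0.0307), a call that no left-out library preserved. The median of the list was 0.20, 28 members lay above 0, 15 were higher and 2 lower at an unadjusted p under 0.05, and for 16 every HC library lay above every EC library. Over all 12590 tested genes 2417 had an unadjusted p under 0.05 by limma in either direction, and 13% had every HC library above every EC library. With libraries scaled to the same sum 12 of the G2 and M phase genes passed with a median of 0.33, beside a shift of all genes to 0.14. Of 32 S phase genes 1 rose and 1 fell. Of 15 cyclins, kinases and inhibitors 1 (6.67%) fell: Cdkn1c, the imprinted inhibitor p57 that holds cells in quiescence, was at 211, 197 and 213 FPKM in HC and 377, 336 and 340 in EC (log2 −0.76 ± 0.08, adjusted p = 0.000779), with no overlap, and held.

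Markers of the surrounding tissue did not pass. None of 25 smooth muscle and mesenchyme genes, 13 epithelial genes or 6 yolk sac and liver genes was called by limma, and 0 of them had an unadjusted p under 0.05. Over all tested genes 4.62% were called, and 2417 of 12590 had an unadjusted p under 0.05 by limma. Given the spread between replicates shown next, the absence of calls does not show equal levels in the 2 groups. Acta2, the actin of smooth muscle, was at 158, 58.2 and 155 FPKM in HC and 95.6, 28 and 153 in EC (log2 0.59 ± 0.54, adjusted p = 0.616), so it varied more between replicates than between groups. The summed smooth muscle genes were at 1657, 586 and 1663 FPKM in HC and 1187, 403 and 1618 in EC, lowest in replicate 2 of each. Limma made no call either for the 30 nucleolar genes (4 higher at an unadjusted p under 0.05), the 20 interferon genes (3 higher) or the 14 retinoid genes tested (2 higher and 3 lower). With libraries scaled to the same sum 1 nucleolar gene was called higher. Of 22 inflammatory genes 3 (13.6%) rose and 1 (4.55%) fell, against 2.54% and 2.08% of all tested genes. Those that rose were Cxcl2, Tnf and Ccl2, with the lowest HC value in replicate 2 for each (Cxcl2 at 22.4, 4.77 and 13.4 against 0.376, 0.747 and 0.604 FPKM, log2 2.99 ± 0.56), and none was called without EC replicate 1, HC replicate 1 or HC replicate 3. Cxcl2 passed the filter through HC alone.

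Mitochondrially encoded genes took 5.11 to 5.73% of the summed FPKM in HC and 8.53 to 8.76% in EC, with no overlap. Of 14 tested 5 (35.7%, against 2.08% of all tested genes) fell and none rose (median −0.54). mt-Atp8 was at 6932, 7551 and 8816 FPKM in HC and 24286, 21898 and 21348 in EC (log2 −1.54 ± 0.20, adjusted p = 0.00288), and mt-Atp6, the neighbouring subunit gene, at 613, 666 and 778 against 1191, 1217 and 1396 FPKM (log2 −0.89 ± 0.18, adjusted p = 0.0228). The call of mt-Atp8 held, but its difference was 0.0 after quantile normalization, a method that gives the same value to the top-ranked gene of every library, which mt-Atp8 was in all 6. The list had 1 call without HC replicate 1, EC replicate 1 or EC replicate 3, 2 without HC replicate 3 and 3 without HC replicate 2. The mitochondrial share moved with every comparison above, and its part in them was not tested beyond the scalings.

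The same contrast in the GFP+ cells of these vessels uses 6 other libraries. For the same 12590 genes, 960 (7.63%) were called higher and 743 (5.90%) lower in the HC of that contrast. Of the 320 genes higher among GFP- cells 233 (72.8%, or 24.3% of the 960) were also higher among GFP+ cells, and of the 262 lower genes 163 (62.2%, or 21.9% of the 743) were also lower. For St6gal1, a sialyltransferase gene, the 2 contrasts were called in opposite directions. It was at 31, 27.9 and 30.3 FPKM in GFP- HC and 20.4, 23 and 17.9 in GFP- EC (log2 0.53, adjusted p = 0.0164), but at 41.1, 38.1 and 46.6 in GFP+ HC and 58.6, 54 and 55.7 in GFP+ EC (a log2 difference of −0.41 at an adjusted p of 0.0195). Its call among GFP- cells was lost without EC replicate 1, HC replicate 1 or HC replicate 3 (0.44 to 0.61).

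The difference between the contrasts was tested in the same limma fit as the GFP- effect minus the GFP+ effect. It passed for 52 genes, positive in 35 (0.278%) and negative in 17 (0.135%). None of the 31 macrophage genes was among them, and the list median was 3.71 among GFP+ cells, with 29 calls. Over all tested genes 0.413% passed, so no pass among 31 genes does not show that the 2 effects were equal. Prox1 had an effect of 1.36 among GFP- and 0.29 among GFP+ cells, a difference that did not pass (1.07, adjusted p = 0.0706), and Kit, with 0.38 among GFP- cells, did not pass either (−0.90, adjusted p = 0.0963). Among red cell genes Sptb, the spectrin of red cells, passed (4.74, 4.06 and 3.06 FPKM in GFP- HC, 1.83, 1.48 and 1.46 in GFP- EC, at most 1.38 in the GFP+ libraries, 1.42 ± 0.23, adjusted p = 0.0231), a call lost without 9 of the 12 libraries.

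Arterial genes accounted for 5 of the positive differences, in which the fall of HC against EC was larger among GFP+ cells. Unc5b, a netrin receptor, was at 34.5, 36.9 and 32.7 FPKM in GFP- HC and 63.7, 53.6 and 45.7 in GFP- EC, and at 10.9, 11.2 and 10.9 in GFP+ HC and 45.4, 40.9 and 45.5 in GFP+ EC (difference of effects 1.28 ± 0.15, adjusted p = 0.00595). Ltbp4, which binds TGF-beta in the matrix, fell by 0.96 on the log2 scale among GFP- cells and by 2.64 among GFP+ cells (difference 1.67 ± 0.23, adjusted p = 0.0115). Fbln5, an elastic fibre protein, did not differ beyond the spread among GFP- cells (1.95, 1.14 and 1.91 against 1.87, 1.38 and 2.87 FPKM) and stood at 2.72, 2.78 and 4.9 in GFP+ HC and 29.4, 24.8 and 38.6 in GFP+ EC (difference 2.67 ± 0.35, adjusted p = 0.00854). These 3 calls held with any 1 of the 12 libraries left out. Those of Hey2 (1.82 ± 0.29) and Jag1 (1.18 ± 0.17) were lost without 8 and 4 of them. The arterial list as a whole had a median of −0.61 among GFP- and −1.20 among GFP+ cells, with 18 and 26 genes lower.

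The 17 negative differences included genes that rose more among GFP+ cells. Myb rose by 1.27 among GFP- cells and by 3.35 among GFP+ cells (difference −2.08 ± 0.28, adjusted p = 0.0115). Gpr56, a receptor of blood stem cells, was at 6.57, 8.74 and 6.9 FPKM in GFP- HC and 5.43, 4.82 and 7.75 in GFP- EC, which overlap, and at 53.5, 77.4 and 60.3 in GFP+ HC and 9.8, 13.6 and 11.3 in GFP+ EC (difference −2.08 ± 0.26, adjusted p = 0.0071). Both calls held with any 1 library left out, but that of Myb was lost with a pseudocount of 0.1. By contrast, Cdkn1c had the larger effect among GFP- cells. It fell by 0.76 among GFP- cells and differed by −0.05 among GFP+ cells (difference −0.70 ± 0.11, adjusted p = 0.0207), which was lost without 8 of the 12 libraries.

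**Figure D5:**
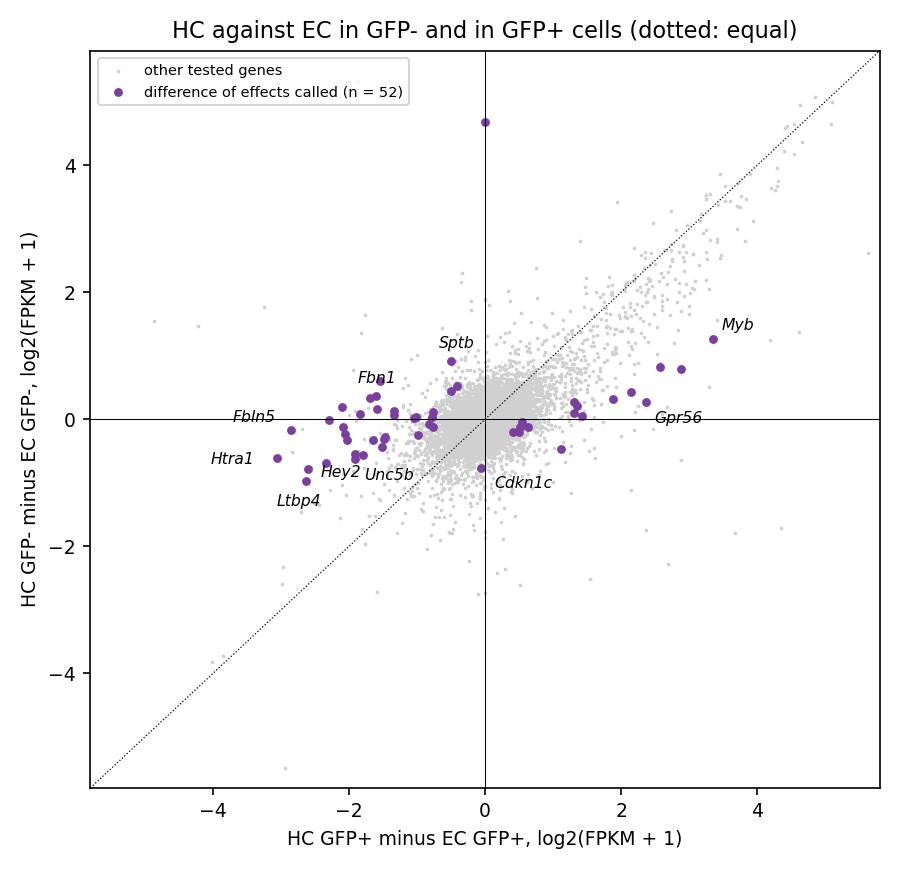
HC minus EC difference among GFP+ cells (horizontal axis, log2) against that among GFP- cells (vertical axis, log2), 1 point per tested gene. The 52 genes whose 2 differences were called unlike are purple, and 1 of them, the model gene Gm22027 at 4.68 on the vertical axis, was listed at 0 in 9 libraries and at 24.3, 24.7 and 25.2 FPKM in GFP- HC.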

How the data were processed

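RNA-seq of polyadenylated RNA gave 12 libraries, 3 in each of 4 sorted populations, and the 6 GFP- libraries were compared here. The deposited table holds FPKM values that the authors computed. Cufflinks, featureCounts, edgeR and DESeq and the genome build mm9 are named per the submitters' processing notes, with neither roles nor versions. FPKM adjusts for transcript length and library size, keeps no depth, and a value of 0 can be a failed estimate.

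Values were taken as log2(FPKM + 1) and fitted with limma 3.58.1 in R 4.3.3, with 1 mean per population over all 12 libraries (8 residual degrees of freedom), a trend of variance with level, and Benjamini-Hochberg adjustment over the 12590 genes that reached 1 FPKM in 3 or more GFP- libraries. Every adjusted p is from limma at a threshold of 0.05. The fit was tested on simulated data. Tables and figures used Python 3.11.15, pandas 2.3.3, numpy 2.4.6 and matplotlib 3.10.9. The labels call the 3 samples of a population independent, and the p-values measure the spread between those pools.

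Named genes were the gate and marker genes, the 12 largest called differences each way with a mean of at least 5 FPKM, no overlap and no clone or model name, up to 4 members per list and the 5 largest differences of effects each way. Kitl, St6gal1 and list members beyond the first 4 were chosen after their values were seen. The comparison, its members and the 40 gene lists were chosen with earlier results of these data known, so list counts are descriptions. Alternatives were a pseudocount of 0.1, no filter, a stricter filter (mean FPKM of 5), quantile normalization, equal FPKM sums with and without globins, the 6 GFP- libraries fitted alone, a replicate block and leaving out each library. Equal sums without mitochondrial genes were added after seeing the data. The numbers are not said to pair the samples, so the main fit used no pairing and the replicate block was an alternative. Deviations of HC and EC with the same number correlated at -0.067, 0.23 and 0.094, and those with different numbers at -0.263 to 0.219. Whether same-numbered samples are related was not tested further. Promoters came from RefSeq (GRCm38.p6), and 21 of 30 called macrophage, 16 of 18 arterial and 5 of 7 venous and lymphatic genes had one.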

Additional observations from a re-analysis of the deposited data

Results flagged for a closer look

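For 13 of the genes named by rule, the HC minus EC difference among GFP- cells was unlike that among GFP+ cells by limma's test of the difference itself. The values are the GFP- effect minus the GFP+ effect on the log2 scale. Negative values were -2.08 for Myb, -2.08 for Gpr56, -2.09 for AI662270, -1.74 for Pstpip1, -1.71 for Treml2 and -0.70 for Cdkn1c. Positive values were 4.68 for Gm22027, 2.67 for Fbln5, 2.45 for Htra1, 2.29 for Pi16, 2.29 for Pde3a, 1.67 for Ltbp4 and 0.95 for Fbn2.

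The calls of Myb, Gpr56, Fbln5, Htra1, Pi16, Ltbp4 and Gm22027 passed with any 1 of the 12 libraries left out. With a pseudocount of 0.1 the calls of Myb, AI662270, Pstpip1, Treml2, Pde3a and Fbn2 were lost. That of Pstpip1 was lost without 11 of the 12 libraries, those of AI662270 and Fbn2 without 10, that of Pde3a without 9, that of Cdkn1c without 8 and that of Treml2 without 7. Htra1, a secreted protease, was at 3.42, 2.75 and 3.54 FPKM in GFP- HC and 6.46, 3.71 and 6.62 in GFP- EC, against 11.2, 8.51 and 13 in GFP+ HC and 86.6, 102 and 102 in GFP+ EC.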

How the results depend on the processing

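The 320 higher and 262 lower calls became 209 and 112 with the 6 GFP- libraries fitted alone, 565 and 130 with equal FPKM sums, 628 and 130 with equal sums without globins, and 191 and 145 with no filter. With the stricter filter, where fewer genes were tested, 176 were higher and 226 lower, so that falls outnumbered rises. Equal sums without mitochondrial genes gave 396 higher and 159 lower. Leaving out 1 GFP- library gave 52 to 333 higher and 48 to 319 lower, and leaving out 1 GFP+ library 225 to 398 and 185 to 304. The 35 positive differences of effects became 97 (equal sums), 109 (without globins), 69 (without mitochondrial genes), 57 (no filter) and 15 (stricter filter), and the 17 negative ones 35 (no filter), 11 (pseudocount of 0.1) and 8 (stricter filter). With 1 library left out there were 11 to 42 positive and 3 to 29 negative differences, lowest without HC GFP+ replicate 2. With 1 GFP- library left out, macrophage rises ranged from 12 to 30, arterial falls from 9 to 19 (11 with the GFP- libraries alone) and venous and lymphatic rises from 4 to 11. Without HC GFP+ replicate 2 there were 31 macrophage rises and 20 arterial falls. The difference of mt-Atp8 was 0.0 after quantile normalization. The causes were not tested. A replicate block gave 353 higher and 245 lower calls. Same-numbered libraries did not all deviate together (pairing correlations of -0.067, 0.23 and 0.094). Depth is unknown, and 3 pools per group limit the precision, with HC replicate 2 standing apart and EC replicate 3 least like the other EC.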

Other observations

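Replicate 2 had the lowest summed FPKM of the smooth muscle list in each of the 4 populations. The sums of replicates 1, 2 and 3 were 1657, 586 and 1663 in GFP- HC, 1187, 403 and 1618 in GFP- EC, 754, 355 and 458 in GFP+ HC and 457, 351 and 666 in GFP+ EC. The megakaryocyte and platelet list was also lowest in replicate 2 of each, at 768, 560 and 678 in GFP- HC, 588, 524 and 769 in GFP- EC, 683, 584 and 878 in GFP+ HC and 427, 366 and 713 in GFP+ EC. The macrophage sum was 2668, 975 and 5329 in GFP+ HC, lowest in replicate 2 there as well.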
